A study of Danio rerio with 4 samples.

Results

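The nuclear genes of the respiratory chain are the genes in the cell nucleus whose products build, link or help assemble the electron transport complexes and ATP synthase of the mitochondrial inner membrane. Members were the Ensembl genes whose zebrafish symbol, in capitals or not, begins with nduf (complex I), sdha to sdhd (complex II), uqcr, uqcc or cyc1 (complex III), cycs (cytochrome c), cox4 to cox8 or cox10 to cox19 (complex IV), or atp5 (complex V). The rule found 121 of the 26996 Ensembl genes with a symbol, in files of 49610 identifiers. Of these, 45 belonged to complex I, 9 to complex II, 15 to complex III, 2 to cytochrome c, 30 to complex IV and 20 to complex V. Genes of the chain under another symbol were not counted as members, and some of them were read only as separate lists.

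RNA came from testes of wild-type AB zebrafish aged 5 months, after 30 days with dibutyl phthalate (DBP), with diisobutyl phthalate (DiBP), with both (DBP+DiBP), or with neither (control). The phthalates are plasticizers and isomers, with linear butyl chains in DBP and branched ones in DiBP, and the labels used here give no doses. The sample labels say male, although the design text says female. Each group was 1 library, so no difference below has a replicate check or a p-value, and whether a library pooled several fish is not given in the sources used here.

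Respiration in mitochondria passes electrons from NADH through complex I, and from succinate through complex II, to ubiquinone. Complex III then hands them to cytochrome c, and complex IV (cytochrome c oxidase) to oxygen. Complexes I, III and IV pump protons, and complex V (ATP synthase) lets them back to make ATP. A few central subunits are encoded in mitochondrial DNA, and the rest are nuclear. Several subunits of complex IV exist as isoforms from separate genes, which in mammals are used by different tissues, heart and skeletal muscle among them. In mammals the testis has its own forms of some of these proteins, such as COX6B2 beside the widely expressed COX6B1.

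Levels are FPKM, fragments scaled to transcript length and sequencing depth, a unit read from the values because the files do not name it. A pair of libraries is compared by the log2 ratio of FPKM + 1, and a gene is called higher or lower when that ratio is 2-fold or more. Comparison was limited to the 23405 features (genes or assembled loci) whose level averaged 1 FPKM or more over the 4 libraries. Of the 121 members 117 passed, and all 117 had at least 4 FPKM in every library, so none passed through 1 group alone. The other 4 were cycsa and ndufa4l2b, listed at 0 in every library, ndufa9b at 0.216 to 0.964 FPKM, and NDUFA4L2. NDUFA4L2, a relative of NDUFA4 that hypoxia induces in mammals, was at 0.138 FPKM in DBP, 0.278 in DiBP, 1.44 in DBP+DiBP and 0.327 in control. Symbols in capitals come without the letter that separates zebrafish gene copies, so a copy with a repeated symbol is given with its Ensembl number. The values of 9 members (NDUFA6, NDUFA12, NDUFB11, NDUFS4, ndufb3, sdhaf1, uqcc5, UQCRB and ATP5PB) equalled those of another gene in every library, and their levels are uncertain.

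The tissue label was checked against marker genes. All 13 features found for spermatogonia and meiosis and all 14 for spermatids and sperm were at or above 1 FPKM in every library. Listed genes at 0 in every library were dropped before this count, so it could not show an absent marker. Of the 15 symbols listed for spermatogonia and meiosis 1 was not matched. Among the 14, WDR5 is not a listed gene and stands for a marker with equal values. The library totals were 575737 FPKM in DBP, 547485 in DiBP, 605447 in DBP+DiBP and 604779 in control. The DBP+DiBP library stood apart in its markers of other tissues. Of 16 markers of absorptive gut and liver, 10 were under 1 FPKM in DBP, 13 in DiBP, 0 in DBP+DiBP and 9 in control. Their summed level was 35.5 FPKM in DBP, 11.8 in DiBP, 3595 in DBP+DiBP and 63.1 in control. The bile acid binding protein gene FABP6 made up most of it, with 2323 FPKM in DBP+DiBP against 6.45 in control. The 10 leukocyte marker features summed to 229 FPKM in DBP, 260.0 in DiBP, 589.6 in DBP+DiBP and 196 in control. The 13 spermatogonia and meiosis features summed to 2311 FPKM in DBP, 2028 in DiBP, 954 in DBP+DiBP and 1962 in control. In bulk RNA, fewer cells of a type and less RNA per cell cannot be told apart, and this holds for every level and ratio below.

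**Figure D1:**
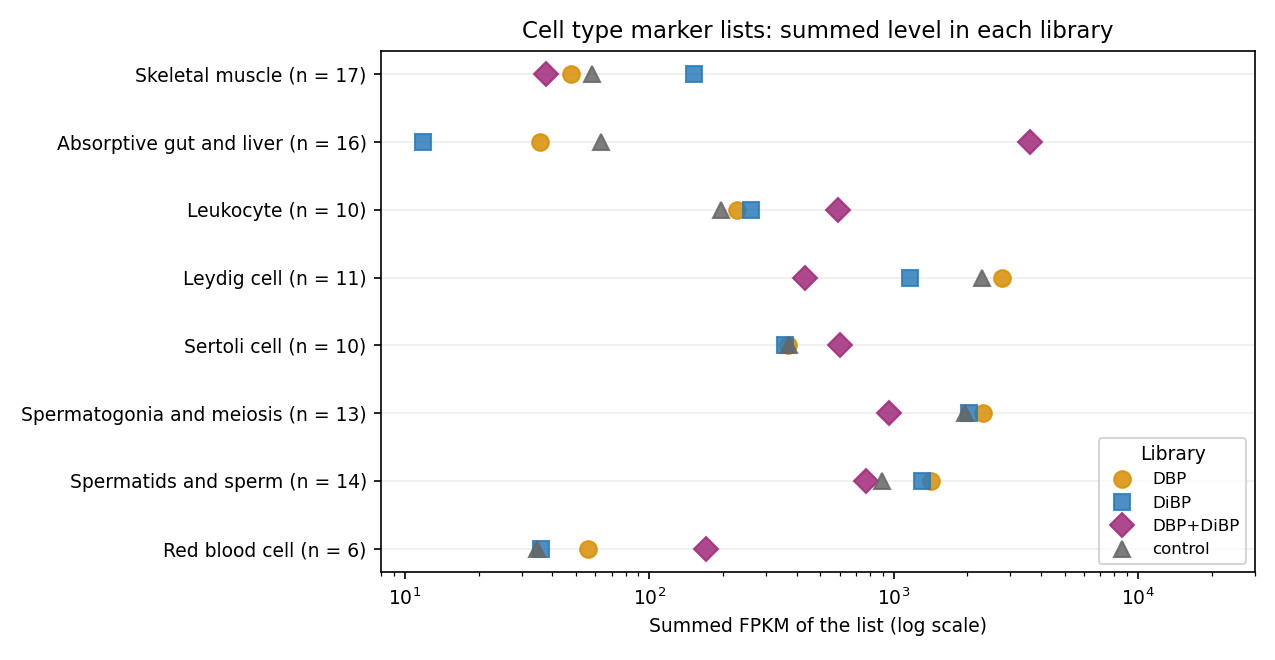
Summed FPKM (log scale) of each cell type marker list in the DBP, DiBP, DBP+DiBP and control libraries, 1 symbol per library and n the number of gene features in the list. The DBP+DiBP library lies far to the right for absorptive gut and liver (3595 against 63.1 FPKM in control) and to the left for Leydig cell (431 against 2288) and for spermatogonia and meiosis (954 against 1962).

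Respiratory chain genes were among the strongly expressed genes of these testes. Together they held 2.83% of all FPKM in DBP, 2.83% in DiBP, 3.13% in DBP+DiBP and 2.75% in control. All 117 compared members lay above the median of the compared features in each library, a median of 4.09 FPKM in DBP, 3.80 in DiBP, 4.03 in DBP+DiBP and 3.78 in control. The 5% of features with the highest levels began at 69.9 FPKM in DBP, 70.9 in DiBP, 63.8 in DBP+DiBP and 64.3 in control, and 59, 57, 72 and 64 members lay above those points. By complex, the summed level was 7062 FPKM in DBP+DiBP and 5694 in control for complex IV, 6307 and 5192 for complex V, and 1044 and 768 for complex III. It was 334 FPKM in DBP+DiBP and 299 in control for complex II, and 4102 and 4598 for complex I, the only complex with the smaller sum in DBP+DiBP. The median compared member went the other way in complexes I and II. It was at 77.0 FPKM in DBP+DiBP and 73.6 in control for complex I, and at 15.5 and 23.5 for complex II. In complexes III, IV and V the median was higher in DBP+DiBP, as the sum was.

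The member with the highest mean was NDUFA4, once counted with complex I and now known in mammals as a complex IV subunit. It had 935 FPKM in DBP, 849.7 in DiBP, 714 in DBP+DiBP and 831 in control. Next to it stood ATP5MG (subunit g of ATP synthase) and COX7C (a small complex IV subunit), at 799.7 and 764 FPKM in control. Among assembly factors, proteins that help build a complex but do not stay in it, the strongest in control was the copper chaperone cox17 at 62.5 FPKM, and the weakest was NDUFAF7 at 5.67. The accessory subunit NDUFB7 had the highest mean of complex I, with 327 FPKM in DBP, 302 in DiBP, 294 in DBP+DiBP and 368 in control.

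In DBP against control, none of the 117 members was 2-fold higher or lower, whereas 6.68% of all compared features were higher and 4.5% lower. Among features averaging 5 FPKM or more, closer to these genes in level, the shares were 5.78% and 4%. The members' log2 ratios ran from -0.75 to 0.78, with a median of -0.10 beside 0.05 over all features. The middle 50% of members lay between -0.23 and 0.08, and that of all features between -0.27 and 0.41. Past 1.5-fold, 3 members were higher and 5 lower, where 16.9% of all features were higher and 10.9% lower.

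The 3 members higher by 1.5-fold in DBP were cox7a1, UQCR10 and UQCRB. The gene cox7a1, whose mammalian counterpart is the heart and skeletal muscle isoform of a complex IV subunit, had 13.99 FPKM in DBP and 7.72 in control (log2 ratio 0.78). UQCR10, a small subunit of complex III, had 236 FPKM in DBP and 144 in control (log2 ratio 0.71). UQCRB, the ubiquinone-binding subunit of complex III, had 44.0 FPKM in DBP and 27.4 in control, but its values are also those of RAD21 and 2 other genes. The 5 lower were 4 assembly factors and SDHB. NDUFAF4 of complex I had 15.02 FPKM in DBP and 25.9 in control, COX10, which makes the heme precursor of complex IV, 11.4 and 18.8, uqcc4 8.60 and 14.2, and SDHAF3 10.1 and 15.8. SDHB, the iron-sulfur subunit of complex II, had 22.6 FPKM in DBP and 35.1 in control (log2 ratio -0.61).

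In DiBP against control, again none of the 117 members passed 2-fold, with 4.6% of all features higher and 3.86% lower (4.77% and 3.41% of those averaging 5 FPKM or more). The members' log2 ratios ran from -0.69 to 0.75 with a median of -0.13, beside -0.01 over all features. With library totals made equal, the members' median was -0.01 beside 0.08 over all features. Past 1.5-fold, 2 members were higher and 1 lower, where 13.2% of all features were higher and 12% lower. UQCC1, an assembly factor that acts on cytochrome b, had 16.05 FPKM in DiBP and 9.16 in control (log2 ratio 0.75). The complex IV isoform cox4i1l had 18.2 FPKM in DiBP and 10.9 in control (log2 ratio 0.69). The lower member was SDHD (ENSDARG00000055712), 1 of 2 genes for a membrane anchor of complex II, at 10.7 FPKM in DiBP and 17.9 in control (log2 ratio -0.69).

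Ratios within the complexes were small after either single exposure. In DBP the highest and lowest subunits of complex I were NDUFV1, which binds NADH (86.0 FPKM in DBP, 66.7 in control), and NDUFB10 (126 and 175). In DiBP they were ndufb3 (43.8 FPKM in DiBP, 35.3 in control), whose values are shared with USP37, and NDUFA3 (109 and 153). ATP5F1B, the catalytic beta subunit of ATP synthase, had the highest ratio of complex V in both, with 367 FPKM in DBP, 405 in DiBP and 296 in control. The lowest of complex V were ATP5F1D in DBP (182 FPKM against 230.3 in control) and ATP5F1C, the central shaft gamma, in DiBP (79.9 against 113). Cytochrome c came from cycsb alone, at 58.9 FPKM in DBP, 64.3 in DiBP, 79.98 in DBP+DiBP and 82.4 in control.

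**Figure D2:**
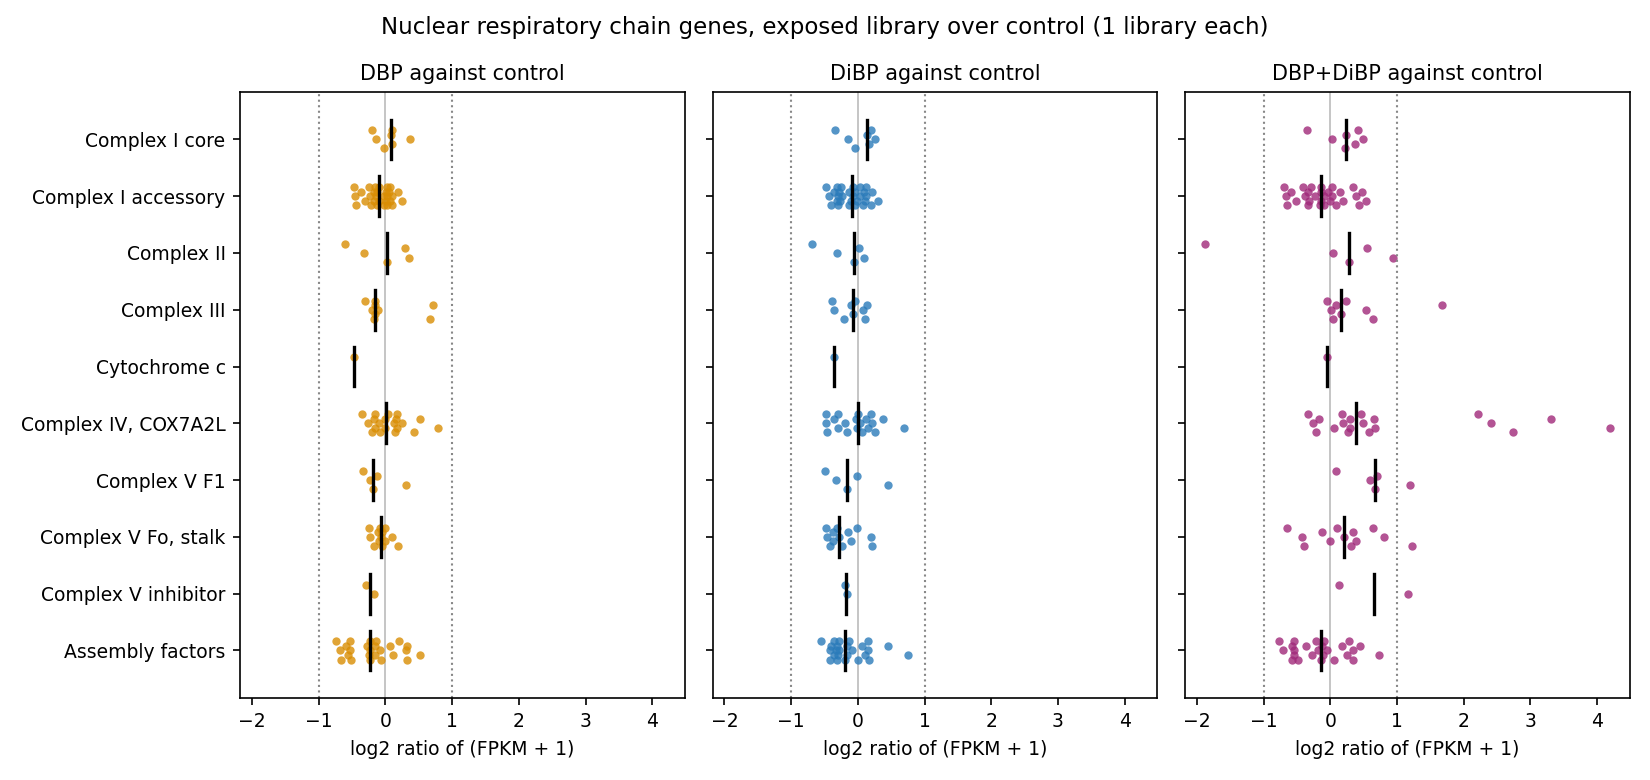
Log2 ratio of FPKM + 1 of each exposed library over control for the 117 compared members, 1 point per gene, grouped by complex and role; black bars are group medians and dotted lines mark 2-fold (COX7A2L is drawn with the complex IV subunits). All points lie inside the dotted lines for DBP and DiBP, while 9 points lie to the right and 1 to the left in DBP+DiBP, with 5 of the 9 in complex IV.

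The DBP+DiBP library held isoforms of complex IV subunits at levels well above the other 3 libraries. Against control 9 of the 117 members were 2-fold higher and 1 lower, 7.69% and 0.855% of the members, beside 9.57% and 6.42% of all features and 8.74% and 6.56% of those averaging 5 FPKM or more. The share of members higher was thus near that of all features. The members' median was 0.08 beside -0.11 over all features, and 0.26 beside 0.03 after scaling by median ratios. Over all features 2239 were higher and 1503 lower as deposited, and 2712 and 1126 after that scaling. Of the 9, 5 were among the 19 compared subunits of complex IV, 3 among the 20 members of complex V and 1 among the 9 subunits of complex III. The 37 compared subunits of complex I and the 25 assembly factors held none. Past 1.5-fold, 19 members were higher and 8 lower, where 16.8% of all features were higher and 20% lower.

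The gene cox4i1l encodes a form of COX4, the largest nuclear subunit of complex IV. Its level was 16.03 FPKM in DBP, 18.2 in DiBP, 215.6 in DBP+DiBP and 10.9 in control. The DBP+DiBP value was 19.8 times that of control (log2 ratio 4.19), a ratio above those of 99.5% of all features. The main form COX4I1 had 411 FPKM in DBP, 378 in DiBP, 426 in DBP+DiBP and 347 in control (log2 ratio of DBP+DiBP over control 0.29). The form COX4I2, which hypoxia induces in mammals, was low in all, at 7.67 FPKM in DBP, 5.26 in DiBP, 12.9 in DBP+DiBP and 7.73 in control. Within the family, cox4i1l thus made up 3.68% of FPKM in DBP, 4.53% in DiBP, 32.9% in DBP+DiBP and 2.98% in control. Such a share within a library does not depend on how libraries are scaled.

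The COX6B family, which sits on the outer face of complex IV near the cytochrome c site, was inverted in DBP+DiBP. The gene cox6b1 had 50.8 FPKM in DBP, 41.1 in DiBP, 384 in DBP+DiBP and 56.9 in control (log2 ratio of DBP+DiBP over control 2.73). The gene cox6b2 had 173 FPKM in DBP, 180.4 in DiBP, 165 in DBP+DiBP and 207 in control (log2 ratio -0.33), the lowest ratio among complex IV subunits. The share of cox6b1 was 22.8% in DBP, 18.6% in DiBP, 70.0% in DBP+DiBP and 21.5% in control. It was the minor gene of the pair in 3 libraries and the major one in DBP+DiBP.

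The NDUFA4 pair differed in the same library. The gene ndufa4b had 17.3 FPKM in DBP, 15.3 in DiBP, 162 in DBP+DiBP and 15.4 in control, a log2 ratio of 3.31 for DBP+DiBP. Its share of the pair was 1.82% in DBP, 1.77% in DiBP, 18.5% in DBP+DiBP and 1.82% in control, and NDUFA4, at the values above, was the major gene of the pair in every library. The 3 other libraries were close to each other in ndufa4b.

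The COX6A and COX7A families, regulatory subunits with heart and skeletal muscle isoforms in mammals, showed the same order. COX6A1 (ENSDARG00000054588) had 43.6 FPKM in DBP, 42.0 in DiBP, 174 in DBP+DiBP and 32.1 in control (log2 ratio of DBP+DiBP over control 2.41). Its partner cox6a1 (ENSDARG00000022438) had 262 FPKM in DBP, 268 in DiBP, 289.6 in DBP+DiBP and 240.4 in control. ENSDARG00000054588 made up 14.3% of the family in DBP, 13.6% in DiBP, 37.6% in DBP+DiBP and 11.8% in control. The gene cox7a1 had 9.10 FPKM in DiBP and 39.6 in DBP+DiBP beside the DBP and control levels above (log2 ratio of DBP+DiBP over control 2.22). Its share beside COX7A2 was 6.77% in DBP, 5.04% in DiBP, 20.3% in DBP+DiBP and 4.25% in control. COX7A2 itself had 193 FPKM in DBP, 171 in DiBP, 155 in DBP+DiBP and 174 in control. The summed level of 17 skeletal muscle marker features was 47.7 FPKM in DBP, 152.0 in DiBP, 37.8 in DBP+DiBP and 58.3 in control. In DBP+DiBP against control 1 of the 14 compared muscle features was 2-fold higher, ACTA1 (ENSDARG00000055618) at 4.56 FPKM against 1.59, and 3 were lower. The DiBP sum was mostly parvalbumin, with pvalb4 alone at 52.9 FPKM. The part of muscle in these isoform levels was not tested.

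**Figure D3:**
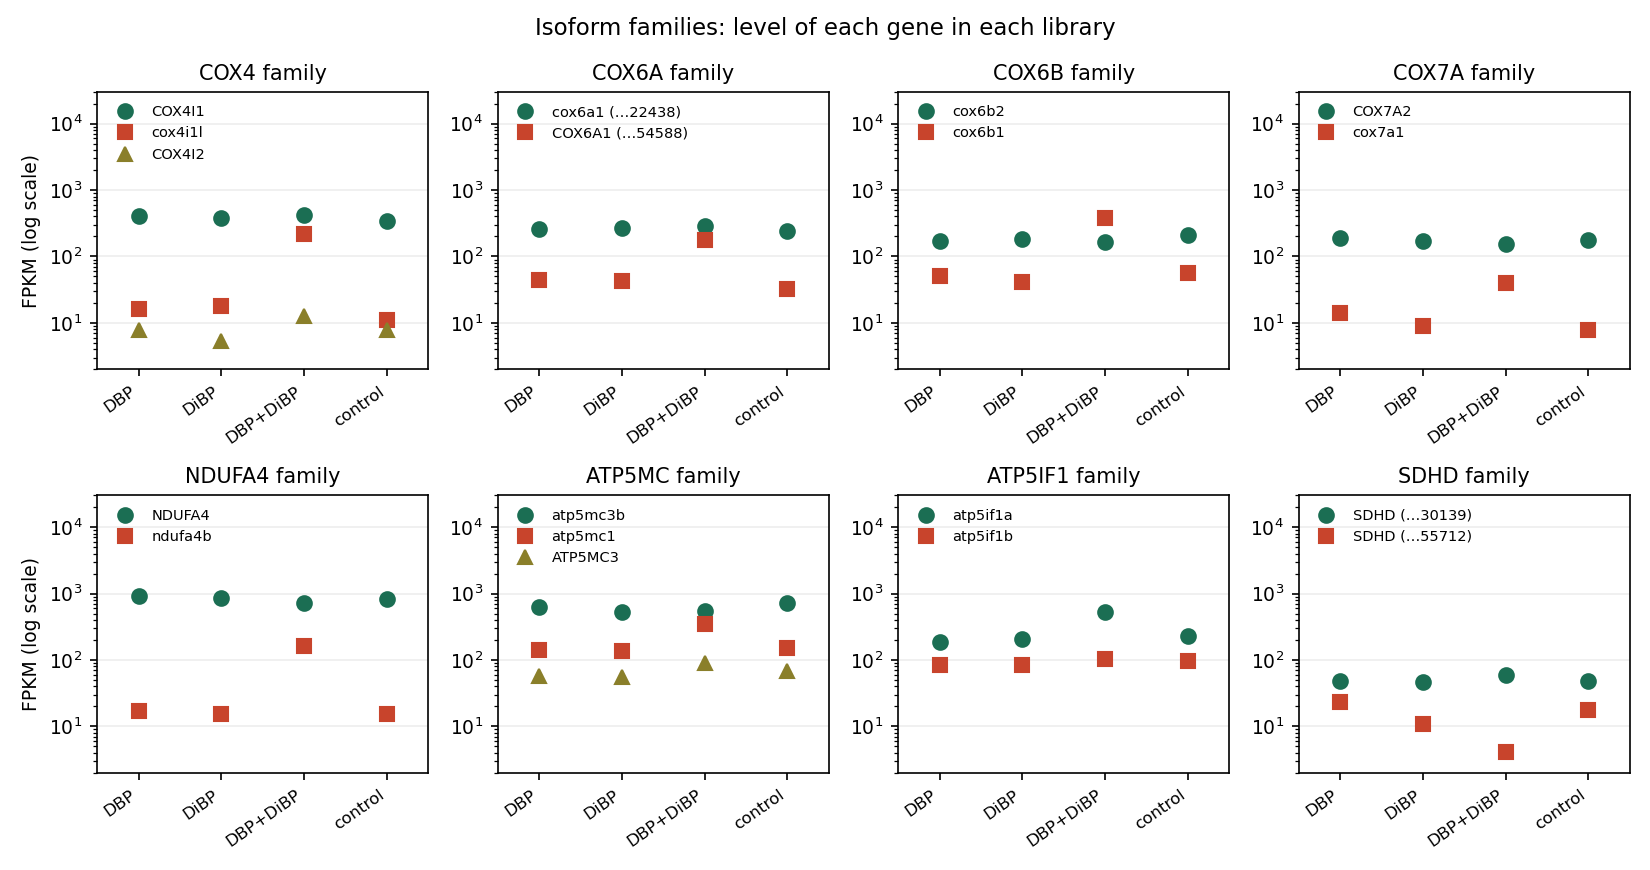
FPKM (log scale) of each gene of 8 isoform families in the DBP, DiBP, DBP+DiBP and control libraries, 1 symbol per gene and library; bracketed digits end the Ensembl number of a copy. The genes cox4i1l, COX6A1 (ENSDARG00000054588), cox6b1, cox7a1 and ndufa4b are at their highest in DBP+DiBP, while the main genes COX4I1, cox6a1 (ENSDARG00000022438), cox6b2, COX7A2 and NDUFA4 show no such step there.

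Shares in the other complex IV pairs differed less between the 4 libraries. In the COX8 and COX5B pairs the gene with the larger share was still not the same in every library. COX5A made up 31.8% of its pair with cox5aa in DBP, 29.8% in DiBP, 37.3% in DBP+DiBP and 34.7% in control. The gene cox8b made up 54.7% of its pair with cox8a in DBP, 58.7% in DiBP, 55.8% in DBP+DiBP and 48.9% in control. The COX5B copies lay between these and the pairs above, with ENSDARG00000015978 beside ENSDARG00000068738 at 38.2% in DBP, 41.3% in DiBP, 51.7% in DBP+DiBP and 38.9% in control. The single-copy subunits COX7C and cox6c had log2 ratios of 0.06 and 0.19 in the comparison of DBP+DiBP over control. COX7A2L, which helps join complexes III and IV into supercomplexes, had 68.0 FPKM in DBP, 72.8 in DiBP, 115 in DBP+DiBP and 72.5 in control (log2 ratio 0.66).

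**Figure D4:**
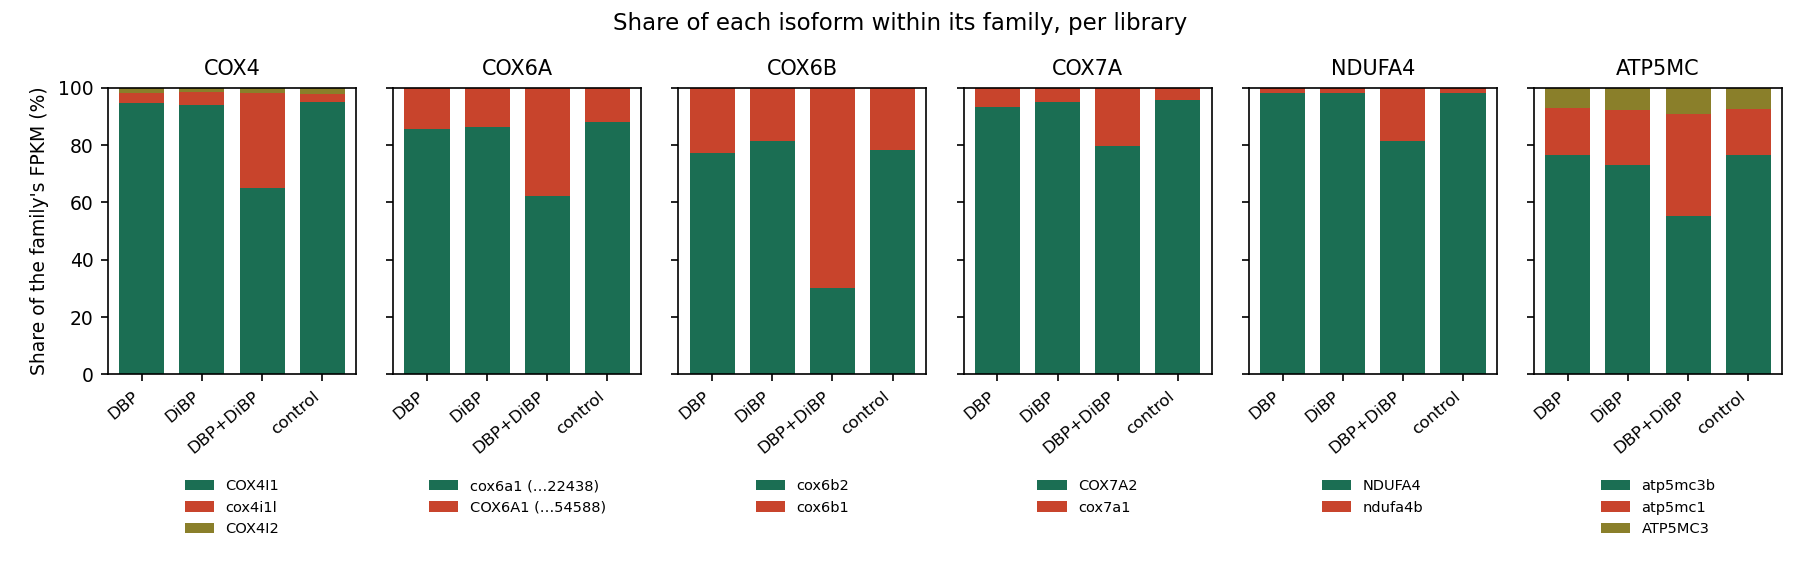
Share of each gene in its family's summed FPKM (percent, stacked to 100) in the DBP, DiBP, DBP+DiBP and control libraries, for 6 isoform families. The share of cox4i1l is 32.9% in DBP+DiBP against 2.98% in control, and that of cox6b1 70.0% against 21.5%.

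In complex V, 3 members were higher in DBP+DiBP. The gene atp5mc1 encodes 1 of the precursors of subunit c, whose ring turns as protons pass. Its level was 139 FPKM in DBP, 136 in DiBP, 352 in DBP+DiBP and 150.1 in control (log2 ratio 1.22). The major precursor gene atp5mc3b had 637 FPKM in DBP, 519 in DiBP, 545 in DBP+DiBP and 714 in control (log2 ratio -0.39). The share of atp5mc1 among the 3 subunit c genes, ATP5MC3 being the weakest, was 16.7% in DBP, 19.2% in DiBP, 35.7% in DBP+DiBP and 16.1% in control. ATP5F1C, the gamma shaft, had 99.2 FPKM in DBP, 79.9 in DiBP, 260.3 in DBP+DiBP and 113 in control (log2 ratio 1.20). The inhibitor gene atp5if1a, whose product stops ATP synthase from running in reverse, had 189 FPKM in DBP, 207 in DiBP, 519 in DBP+DiBP and 231 in control (log2 ratio 1.16). Its copy atp5if1b had 84.2 FPKM in DBP, 83.0 in DiBP, 105 in DBP+DiBP and 95.4 in control.

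The catalytic F1 part and the membrane part of complex V differed in their medians in DBP+DiBP against control, but their ranges overlapped. The 5 F1 subunits had a median log2 ratio of 0.68 and a range of 0.08 to 1.20. The 13 subunits of the membrane part and the stalk had a median of 0.21, and 4 of them lay below 0. Their range of -0.65 to 1.22 took in the whole range of the F1 subunits. The lowest was atp5mea (subunit e), at 326 FPKM in DBP, 331 in DiBP, 182 in DBP+DiBP and 286 in control (log2 ratio -0.65). In DBP the medians of the F1 part and of the membrane part and stalk were -0.18 and -0.07, and in DiBP -0.16 and -0.29.

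In complex III, UQCRH, the acidic hinge protein beside cytochrome c1, was the called member. It had 69.9 FPKM in DBP, 62.1 in DiBP, 259 in DBP+DiBP and 80.2 in control (log2 ratio of DBP+DiBP over control 1.68). Its neighbours in the complex were nearer to control: the cytochrome c1 gene CYC1 had 76.3 FPKM in DBP, 90.5 in DiBP, 85.1 in DBP+DiBP and 82.5 in control. The Rieske iron-sulfur gene UQCRFS1 had 32.4 FPKM in DBP, 35.2 in DiBP, 53.4 in DBP+DiBP and 36.4 in control (log2 ratio 0.54). UQCR10 stood at 154 FPKM in DiBP and 225 in DBP+DiBP beside its DBP and control values above, so it was above control in each exposed library. The core protein gene uqcrc2a was the lowest complex III subunit in both single exposures, with 21.2 FPKM in DBP, 19.9 in DiBP, 29.5 in DBP+DiBP and 26.3 in control. UQCRQ had the only ratio below 0 among the 9 subunits in DBP+DiBP, at 113 FPKM against 117 in control.

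Complex II held the 1 member that was lower. SDHD (ENSDARG00000055712) had 23.2 FPKM in DBP, 10.7 in DiBP, 4.15 in DBP+DiBP and 17.9 in control (log2 ratio of DBP+DiBP over control -1.88). The second membrane anchor SDHC, the strongest subunit gene of the complex, had 131 FPKM in DBP, 108 in DiBP, 110.1 in DBP+DiBP and 107 in control. The other SDHD copy, ENSDARG00000030139, had 48.9 FPKM in DBP, 45.9 in DiBP, 58.5 in DBP+DiBP and 47.9 in control, and so was near level. The lower copy made up 32.2% of the pair in DBP, 18.9% in DiBP, 6.61% in DBP+DiBP and 27.2% in control. SDHB, with 68.6 FPKM in DBP+DiBP and 28.2 in DiBP, had a DBP+DiBP log2 ratio over control of 0.95, just under the 2-fold line, and 1.12 after scaling by median ratios. The flavoprotein gene SDHA had 24.6 FPKM in DBP, 33.1 in DiBP, 46.1 in DBP+DiBP and 31.1 in control. SDHAF2, which attaches the flavin to SDHA, had 11.9 FPKM in DBP, 10.5 in DiBP, 5.06 in DBP+DiBP and 9.28 in control (log2 ratio -0.76).

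Complex I had no member past 2-fold in any exposed library against control. Its 7 core subunits, the redox-active set shared with bacteria, had medians of 0.08 (DBP), 0.13 (DiBP) and 0.23 (DBP+DiBP). Its 30 compared accessory subunits had medians of -0.09, -0.09 and -0.13 in that order. In DBP+DiBP, 6 of the 7 core subunits lay above 0, and 20 of the 30 accessory subunits below. Of all 23405 features 9999 lay above 0 there and 13382 below, with a median of -0.11. The accessory median was thus close to that of all features. The median of all 37 subunits there was -0.091, and 0.086 after scaling by median ratios, so its direction depends on the scaling. NDUFS1, an iron-sulfur core subunit, had 49.6 FPKM in DBP, 57.2 in DiBP, 67.5 in DBP+DiBP and 50.6 in control. NDUFA3, NDUFB1, NDUFB2 and NDUFAB1 were accessory subunits lower by 1.5-fold in DBP+DiBP. NDUFA3 had 156 FPKM in DBP, 109 in DiBP, 94.8 in DBP+DiBP and 153 in control, and NDUFB2 had 275 in DBP, 250.3 in DiBP, 171 in DBP+DiBP and 269.98 in control. The subunit with the highest ratio in DBP+DiBP was ndufv3, with 31.9 FPKM there and 21.7 in control (log2 ratio 0.53).

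The 25 assembly factors had slightly lower medians than the 92 other members. Their median log2 ratio against control was -0.23 (DBP), -0.19 (DiBP) and -0.13 (DBP+DiBP), beside -0.09, -0.10 and 0.16 for the 92 others. In DBP the middle 50% of both overlapped, at -0.53 to 0.06 and -0.18 to 0.08. Within complexes there, the order held in complex I (-0.52 beside -0.03 for subunits) and complex IV (-0.20 beside 0.03). It was reversed in complex II (0.12 beside 0.03) and complex III (-0.11 beside -0.15). In DiBP and DBP+DiBP the order held in complexes I to IV. In DBP+DiBP the ends of the assembly factors' range were SDHAF2, above, and cox16 of complex IV, with 11.05 FPKM in DBP+DiBP and 6.28 in control (log2 ratio 0.73). The strongest assembly factors of the other complexes stayed within 1.5-fold of control in each exposed library. NDUFAF6 of complex I had 41.04 FPKM in DBP, 36.7 in DiBP, 31.5 in DBP+DiBP and 32.5 in control. UQCC2 of complex III had 49.95 FPKM in DBP, 58.5 in DiBP, 50.7 in DBP+DiBP and 55.7 in control. SDHAF4 of complex II, lower in DBP+DiBP than in the others, had 22.2 FPKM in DBP, 20.8 in DiBP, 15.4 in DBP+DiBP and 23.5 in control. NDUFAF8 had the highest DBP+DiBP ratio of the complex I factors, with 9.66 FPKM there and 7.94 in control. The copper chaperone cox17 had 53.0 FPKM in DBP, 42.5 in DiBP, 70.4 in DBP+DiBP and 62.5 in control.

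DiBP and DBP were set side by side as isomers, with doses not given in the sources used here and no interval from 1 library each. Of the 117 members 0 were 2-fold higher in DiBP than in DBP and 1 was lower, beside 2.65% and 4.32% of all features, with a median log2 ratio of -0.03 (-0.04 over all features). The lower member was SDHD (ENSDARG00000055712), at the DiBP and DBP levels above (log2 ratio -1.05), which was -0.99 with library totals made equal and so no longer past 2-fold. Past 1.5-fold, 1 member was higher and 3 lower, beside 7.11% and 12.3% of all features. Besides SDHD these were UQCRB, with 23.5 FPKM in DiBP and 44.0 in DBP, UQCR10, with 154 and 236, and COX11, a copper factor of complex IV, with 10.7 and 6.24.

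DBP+DiBP was also set against each single exposure, comparisons that share the DBP+DiBP library with the one against control. Against DBP 10 of 117 members were higher and 2 lower, beside 10.2% and 11.3% of all features. The 10 were cox4i1l (log2 ratio 3.67), ndufa4b (3.15), cox6b1 (2.89), COX6A1 ENSDARG00000054588 (1.97), UQCRH (1.87), SDHB (1.56), atp5if1a (1.45), cox7a1 (1.44), ATP5F1C (1.38) and atp5mc1 (1.33). The 2 lower were SDHD ENSDARG00000055712 (-2.23) and SDHAF2 (-1.09). Past 1.5-fold, 25 members were higher and 9 lower, beside 17% and 27.1% of all features. Against DiBP 12 were higher and 1 lower, beside 10.5% and 8.19% of all features. Those higher included COX4I2 (log2 ratio 1.15) and ATP5PO, the stalk subunit OSCP (1.06), and the lower was again SDHD ENSDARG00000055712 (-1.18). Past 1.5-fold, 24 members were higher and 4 lower, beside 17.9% and 23.3% of all features.

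Other genes of mitochondrial energy supply were read from lists chosen by function. In DBP+DiBP against control 7 of 28 genes of the TCA cycle and pyruvate entry were 2-fold higher and 0 lower, with a median of 0.13, beside the 9.57% higher and 6.42% lower of all features. The shares of the lists that follow are read against the same background. MDH2, the mitochondrial malate dehydrogenase, had 70.4 FPKM in DBP, 76.96 in DiBP, 222 in DBP+DiBP and 76.4 in control. SUCLG2, a subunit of succinate-CoA ligase, had 4.99 FPKM in DBP, 6.12 in DiBP, 33.0 in DBP+DiBP and 5.70 in control. Of 28 glycolysis genes 5 were higher and 2 lower (median 0.21). The 5 include PGAM2, the muscle phosphoglycerate mutase of mammals, which was compared only through its DBP+DiBP level and so had to differ. It was at 0.138 FPKM in DBP, 0.616 in DiBP, 34.4 in DBP+DiBP and 0.0946 in control. Of 20 genes of coenzyme Q synthesis and electron entry 2 were higher (median 0.10), close to the share of all features. They were the sulfide oxidase gene SQOR and ETFDH. Of 24 carriers and coupling genes 2 were higher and 2 lower (median -0.04), also close to it, with the carrier UCP2 at 47.2 FPKM in DBP+DiBP and 10.02 in control.

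Lists for making mitochondria had medians below 0 in each exposed library as deposited, and some of these changed sign with the scaling. The 73 mitochondrial ribosomal protein genes had medians of -0.26 (DBP), -0.29 (DiBP) and -0.18 (DBP+DiBP), with 2 lower in DBP and none called in the others. Scaling by median ratios brought the DBP+DiBP median to -0.011. The 25 import genes had medians of -0.47, -0.50 and -0.45 in that order, and 1, 4 and 1 of them were lower, beside 4.5%, 3.86% and 6.42% of all features. The import medians were below 0 under both other scalings too. The 18 regulators and genes of mitochondrial DNA upkeep had medians of -0.21, -0.19 and -0.36. Of them 1 was lower in DBP, 1 higher in DiBP and 2 lower in DBP+DiBP. The gene pprc1, a coactivator of the PGC-1 family, was lower in DBP and in DBP+DiBP. It was at 3.78 FPKM in DBP, 6.36 in DiBP, 4.75 in DBP+DiBP and 10.8 in control. POLG was also lower in DBP+DiBP (log2 ratio -1.18). Against the direction of the medians, HIF1A was at 13.2 FPKM in DiBP and 1.64 in control. Its log2 ratio was 2.43 in DiBP, beside 0.18 in DBP and 0.22 in DBP+DiBP. The copy hif1aa was at 1.34 FPKM in DiBP and 1.61 in control (log2 ratio -0.16). The 30 other assembly factors had medians of -0.16, -0.09 and -0.25, and 0.023 in DiBP with library totals made equal. The 10 mitochondrially encoded features had medians of -0.54, -1.31 and -0.11, beside medians of -0.10, -0.13 and 0.08 for the nuclear members. These 10 features summed to 18436 FPKM in DBP, 14330 in DiBP, 21834 in DBP+DiBP and 31492 in control. Their DBP+DiBP median was 0.071 after scaling by median ratios. As deposited, 7 of the 10 mitochondrially encoded features were 2-fold lower in DiBP than in control, beside 3.86% of all features. The DBP library had 1 lower, mt-atp8 (log2 ratio -1.20), and the DBP+DiBP library 0. In DBP+DiBP MT-ND3 lay just short of the 2-fold line (log2 ratio -0.999). All 13 listed symbols were matched, and 10 features were left after merging equal values and dropping genes at 0 in every library. MT-CO1, the catalytic subunit of complex IV, had 4195 FPKM in DBP, 3957 in DiBP, 4504 in DBP+DiBP and 6693 in control. Its DiBP log2 ratio of -0.76 was the smallest drop of the 10 there. Its DBP+DiBP log2 ratio of -0.57 lay below the list median.

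**Figure D5:**
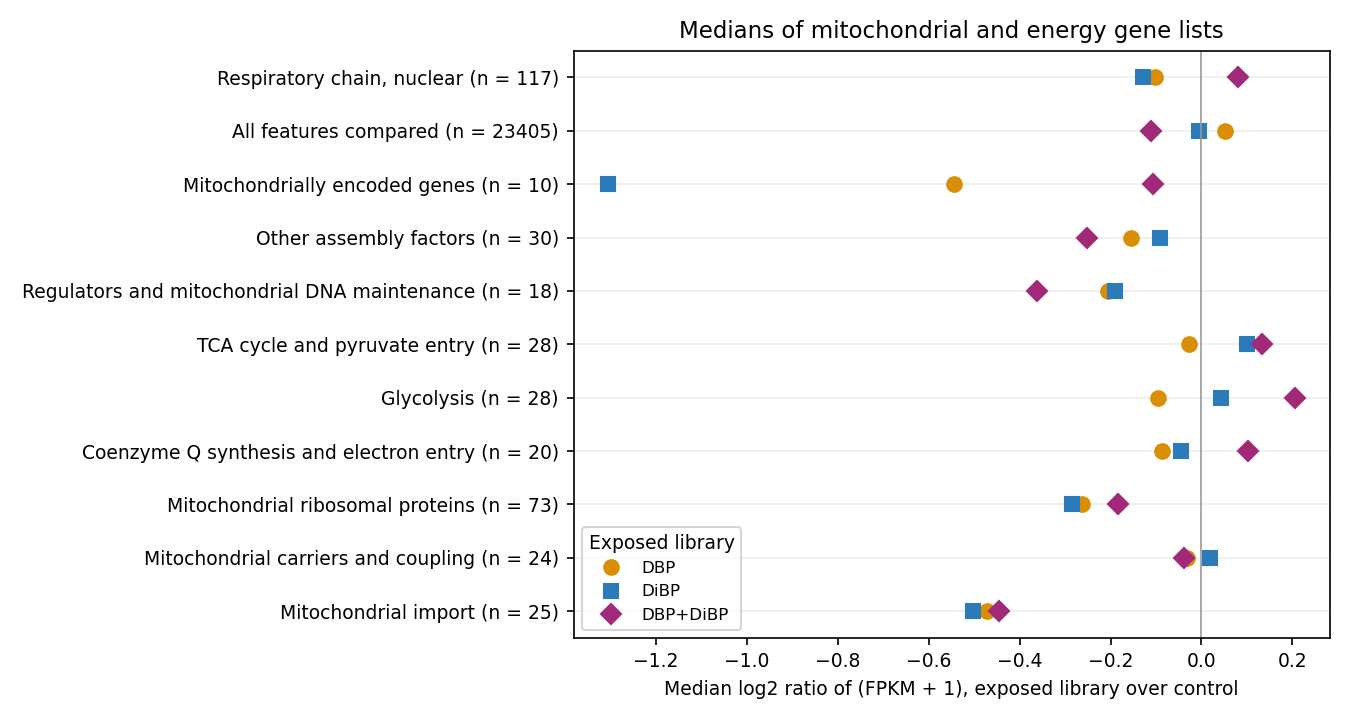
Median log2 ratio of FPKM + 1 over control for the nuclear respiratory chain genes, all features and 9 other gene lists, with 1 symbol per exposed library and n the number of features compared. Mitochondrially encoded genes lie at -1.31 in DiBP, while the nuclear members lie between -0.13 and 0.08 in the 3 libraries.

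The library in which the isoforms were higher was also the one with the highest sums of gut and liver and of leukocyte markers. All 14 compared gut and liver markers were 2-fold higher there than in control, but 6 of them were under 1 FPKM in every other library and so were compared only through that level. CDH17 and VIL1 also passed only through it, as their levels in the other libraries averaged under 1 FPKM. CDH17 was at 0.903 FPKM in DBP, 0.521 in DiBP and 1.03 in control, and VIL1 at 0.386, 1.12 and 0.760. Of 8 compared leukocyte markers 6 were higher. The part of these tissues in the isoform levels was not tested. For red blood cells, Sertoli cells and Leydig cells the sum was also read without the marker highest in DBP+DiBP. The red blood cell markers summed to 56.2 FPKM in DBP, 36.1 in DiBP, 170.4 in DBP+DiBP and 34.6 in control. Without the globin gene hbaa1 they summed to 18.9 FPKM in DBP, 23.95 in DiBP, 16.1 in DBP+DiBP and 9.27 in control, so the DBP+DiBP library was not the highest. The Sertoli cell markers summed to 368 FPKM in DBP, 359 in DiBP, 600.3 in DBP+DiBP and 372 in control. Without gsdf, a gonadal growth factor gene, the sums were 273, 269, 261 and 317 in that order, and of the 8 compared 1 was higher and 1 lower in DBP+DiBP (median 0.015). The Leydig cell markers summed to 2768 FPKM in DBP, 1170.2 in DiBP, 431 in DBP+DiBP and 2288 in control, mostly from the hormone gene insl3. Without it the sums were 312, 127, 138 and 216 in that order. Spermatid and sperm markers summed to 1423 FPKM in DBP, 1307 in DiBP, 771 in DBP+DiBP and 892 in control.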

How the data were processed

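The deposited files, 1 for each library, give a single number for each identifier, taken as FPKM from the values (not whole numbers, with totals that differ between libraries); no header or label names the unit. The submitters' processing notes name HISAT2, HTSeq 0.6.1 and the GRCz10 build without their roles. Per the labels' protocols, libraries were made from total RNA with the NEBNext Ultra kit and read as pairs. Strand use and read numbers are not given in the sources used here. Counting error is therefore unknown. Among low values, the most frequent ratio put depth relative to control at 1.05 (DBP), 1.10 (DiBP) and 1.09 (DBP+DiBP). Few identifiers had that ratio, 54 of 4769 (DBP), 55 of 5140 (DiBP) and 54 of 4526 (DBP+DiBP), so these depths are rough.

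Each file held 49610 identifiers, 35066 of them Ensembl genes (26996 with a symbol in the table of gene names) and 14544 assembled loci, which have no symbol and were not searched for members. Identifiers with equal values in all libraries (3636) were merged, which left 42683 features above 0 somewhere. Values were compared as deposited, as log2(FPKM + 1), for the 23405 features averaging 1 FPKM or more; this scale understates the folds of weak genes. With 1 library per group there was no test, and a 2-fold rule was used, with 1.5-fold counts as description. The rule was tested on simulated data for its counting. Python 3.11.15, pandas 2.3.3 and numpy 2.4.6 were used. Alternatives were a pseudocount of 0.1, no filter, a mean of at least 5 FPKM, equal library totals, scaling by median ratios, and leaving out members with shared values.

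Named genes were all members past 2-fold, the highest and lowest ratio (mean of at least 5 FPKM) and the highest mean in each complex, subunits and assembly factors apart, and fixed isoform families; members past 1.5-fold were added. Members and lists were chosen with earlier results of these data known. List genes were matched by symbol, or without the copy letter where needed.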

Additional observations from a re-analysis of the deposited data

How the results depend on the processing

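No paired analysis was possible because each group was 1 library and the number 2 in every sample title is not explained. Leaving out a replicate was not possible for the same reason. The counts of members 2-fold higher or lower than control were within 1.5 times of those reported under all 6 alternatives, for each exposed library. The other counts that moved were of 1 or 2 members: lower in DiBP than in DBP, 0 with library totals made equal, lower in DBP+DiBP than in DBP, 1 after scaling by median ratios, and lower in DBP+DiBP than in DiBP, 2 with a pseudocount of 0.1 and 2 with library totals made equal. Scaling moved the medians of all members, which lay near 0 as deposited. With 1 library per group their direction is not firm. With library totals made equal the median was -0.011 in DiBP against control, 0.035 in DiBP against DBP (the 1 of 6 medians that changed sign) and 0.051 in DBP+DiBP against DiBP. The medians of all features under that scaling were 0.079, 0.007 and -0.231 in that order. After scaling by median ratios, which moved the median of all features from -0.11 to 0.03 in DBP+DiBP against control, the members' median was 0.26 there, 0.41 against DBP and 0.39 against DiBP. Of 60 medians of single complexes 19 changed sign under at least 1 alternative. Those at 0.1 or more that did so were small groups of assembly factors: -0.075 for complex II in DBP against control and 0.070 for complex III in DiBP against control, both without members that share values, and, after scaling by median ratios, 0.056 and 0.011 for complex III in DBP+DiBP against DBP and against DiBP. No read numbers were given, so what depth limits cannot be stated.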
